A study of Mus musculus with 16 samples.

Results

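The measurement described here is how the enrichment of RNA on the RNA-binding protein Igf2bp2 differed between HL-1 cells given an siRNA against Airn and HL-1 cells given a scrambled siRNA. For each row of the authors' deposited table, the enrichment with the scrambled siRNA was subtracted from the enrichment with the Airn siRNA. Each enrichment was a log2 value, anti-Igf2bp2 precipitates minus IgG precipitates. The rule kept rows with a single gene symbol, which were 22406 of 35556 rows and 20170 genes. A gene with several rows, as 1304 genes had, was represented by its row of smallest standard error.

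The 4 groups of samples were compared in HL-1 cells, an established line of mouse atrial cardiomyocytes kept in Claycomb medium with norepinephrine. They were the Airn siRNA with anti-Igf2bp2, the Airn siRNA with IgG, the scrambled siRNA with anti-Igf2bp2 and the scrambled siRNA with IgG, with 4 biological replicates in each and 16 arrays in all. Each siRNA was used at 10 nM, and RNA recovered by RNA immunoprecipitation (RIP) was hybridised to Affymetrix arrays. The labels name 1 siRNA against Airn and 1 cell line, and the samples were registered in 2 rounds that the deposited comparisons do not separate.

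Igf2bp2 belongs to a small family of proteins that bind mRNAs through KH and RRM domains and act on their stability, transport and translation, in part at sites carrying N6-methyladenosine. Airn, a long RNA without a coding sequence, is read from the paternal chromosome across Igf2r on the opposite strand, and in placenta it silences Igf2r and neighbouring genes. In RIP, an RNA bound to the protein is enriched in the specific precipitate over IgG. A positive value here marks a higher processed signal with anti-Igf2bp2, and a negative value a higher one with IgG. The sources used here do not give the normalization, so the sign may be relative to the other RNAs on the arrays. Whether a negative value means more of that RNA with IgG was not tested. The IgG side and the Igf2bp2 side below name the sign of the value only.

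The table holds comparisons and no value of a single array, so neither the silencing of Airn nor the level of any RNA could be checked. A change of enrichment can come from the specific precipitates, from the IgG precipitates or from both, and these cannot be told apart. The spread between replicates enters through the standard error, which was worked out from each deposited difference and its p. It had a median of 0.33 log2 units for a change, so the 95% interval of a typical gene reached 0.70 on either side of its value. Values of 2 genes are differences within each gene and say nothing of which RNA was more abundant.

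Enrichment was flatter with the Airn siRNA than with the scrambled siRNA. The SD over rows with a single symbol was 0.51 with the Airn siRNA and 0.66 with the scrambled siRNA, and the median absolute value over genes was 0.43 with the Airn siRNA and 0.57 with the scrambled siRNA. An orthogonal line through the origin, which allows equal error in both comparisons, had a slope of 0.74. The authors' deposited adjusted p-values were under 0.05 for 164 genes higher (0.813%) and 34 genes lower (0.169%) on Igf2bp2 with the Airn siRNA. With the scrambled siRNA the authors' deposited table called 5149 genes higher (25.5%) and 3460 genes lower (17.2%). The median change over all genes was -0.01, and its middle 50% lay between -0.23 and 0.22.

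**Figure D1:**
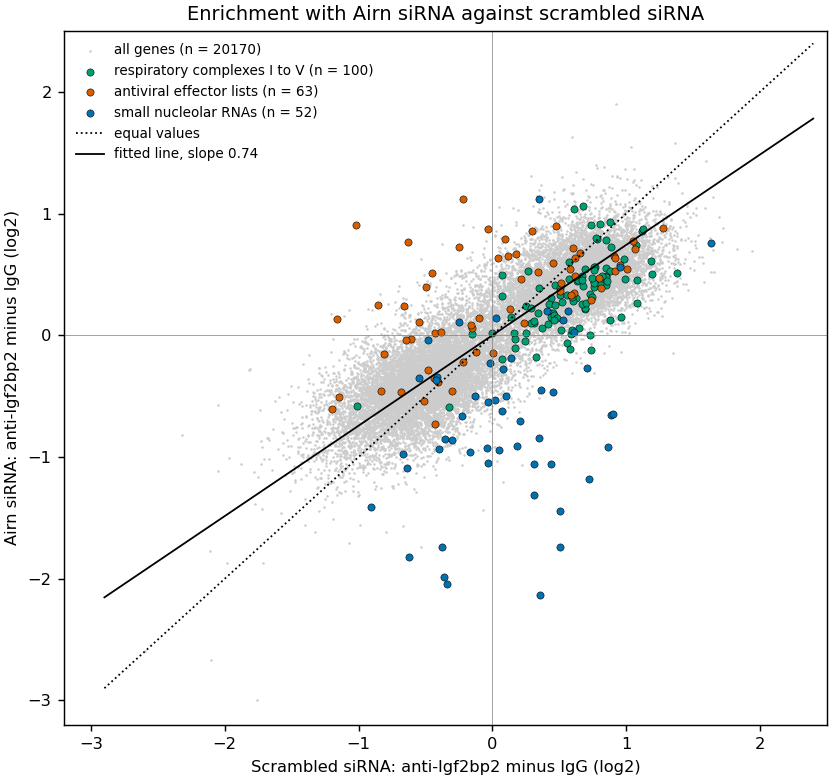
Enrichment of each gene with the Airn siRNA (vertical axis, log2, anti-Igf2bp2 minus IgG) against enrichment with the scrambled siRNA (horizontal axis, log2), 1 grey point per gene, with 3 groups of genes coloured. The cloud follows the solid line of slope 0.74 rather than the dotted line of equal values, and both the respiratory genes and the small nucleolar RNAs lie mostly under the solid line, the small nucleolar RNAs farther from it.

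Because of this difference in scale, the change ran opposite to the average enrichment. Genes whose average over both siRNAs was above 1 had median enrichments of 0.93 with the Airn siRNA and 1.25 with the scrambled siRNA, a median change of -0.32 (234 genes). Genes with an average at or under -1 had median enrichments of -0.98 with the Airn siRNA and -1.26 with the scrambled siRNA, a median change of 0.27 (344 genes). Between these ends the median change stepped down through every bin, and a slope of this kind follows arithmetically wherever 1 of 2 measures has the smaller SD. The change was therefore also computed after multiplying the scrambled value by 0.74, and this is called the scale-adjusted change below. Its medians lay between -0.05 and 0.05 in all 9 bins.

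**Figure D2:**
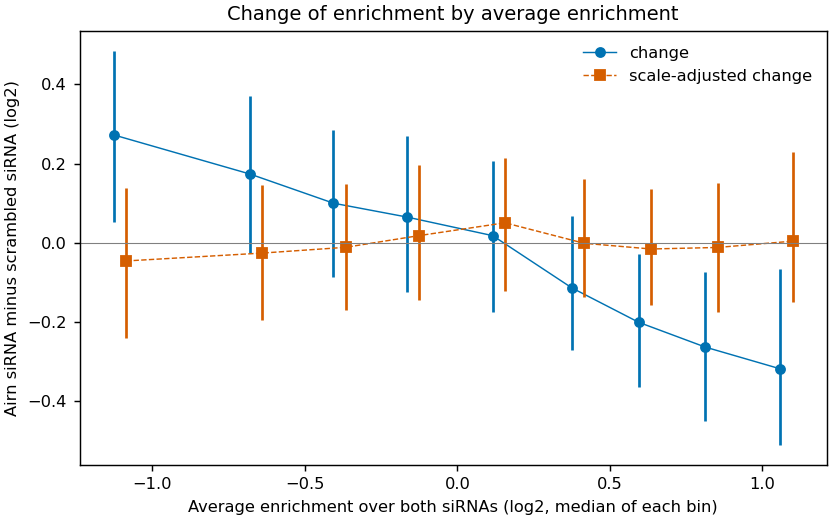
Median change (circles) and median scale-adjusted change (squares), Airn siRNA minus scrambled siRNA in log2 units, for genes in 9 bins of average enrichment, with vertical lines over the middle 50% of genes. The change descends from 0.27 in the lowest bin to -0.32 in the highest, and the scale-adjusted change stays between -0.05 and 0.05.

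No row passed a test of the change after adjustment. With errors recovered from the table, a t distribution with 16.13 degrees of freedom and Benjamini-Hochberg adjustment over all rows, 0 of 35556 rows (0%) had an adjusted p under 0.05. At an unadjusted p under 0.05 there were 1222 rows (3.44%), fewer than the 5% that would lie there if no row differed and the errors were right. Errors set too large would also give a share under 5%, and this was not tested. That 0 rows passed therefore does not show that no RNA changed. Among genes, 550 had an unadjusted p under 0.05 (2.73%), of which 322 stood higher (1.6%) and 228 lower (1.13%) with the Airn siRNA. The scale-adjusted change also gave 0 rows with an adjusted p under 0.05 (0%), and 362 genes with an unadjusted one (1.79%), 260 higher (1.29%) and 102 lower (0.506%). The change was above 0 in 9807 genes (48.6%) and the scale-adjusted change in 9858 genes (48.9%). For the change, shares varied with average enrichment. It was above 0 in 72.3% of genes averaging from -1 to -0.5 and in 21.7% of those averaging from 0.5 to 0.75. Of genes called higher with the scrambled siRNA, 3.53% had an unadjusted p under 0.05 for the change on the lower side. Of those called lower, 5.78% had one on the higher side. A list's counts for the change thus depend in part on its average enrichment. The smallest adjusted p of a named gene was 0.179, for Mx2. It would be 0.0202 if the errors of the comparisons were correlated at 0.3, a correlation that the table does not give. The adjusted p was 0.588 for Trim30a, 0.880 for Gbp3 and at least 0.998 for the other genes named below, so none of them passed. Where a gene below is said to have an unadjusted p under 0.05, this carries no adjustment for the number of rows.

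Gene lists describe which kinds of RNA lay off the common line, and no list was tested. The lists were chosen with earlier results of these data known. Of 68 lists, 44 had a median change beyond 0.1 log2 units in either direction, and after scale adjustment 14 did and 6 were beyond 0.2. Of the 43 lists with a median enrichment above 0 with the scrambled siRNA, 40 had a median change below 0, and of the 25 lists with a median below 0, 20 had a median change above 0. The lists beyond 0.2 after scale adjustment were 3 of structured small RNAs and the histone genes on the lower side, and 2 of interferon-inducible enzymes on the higher side.

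**Figure D3:**
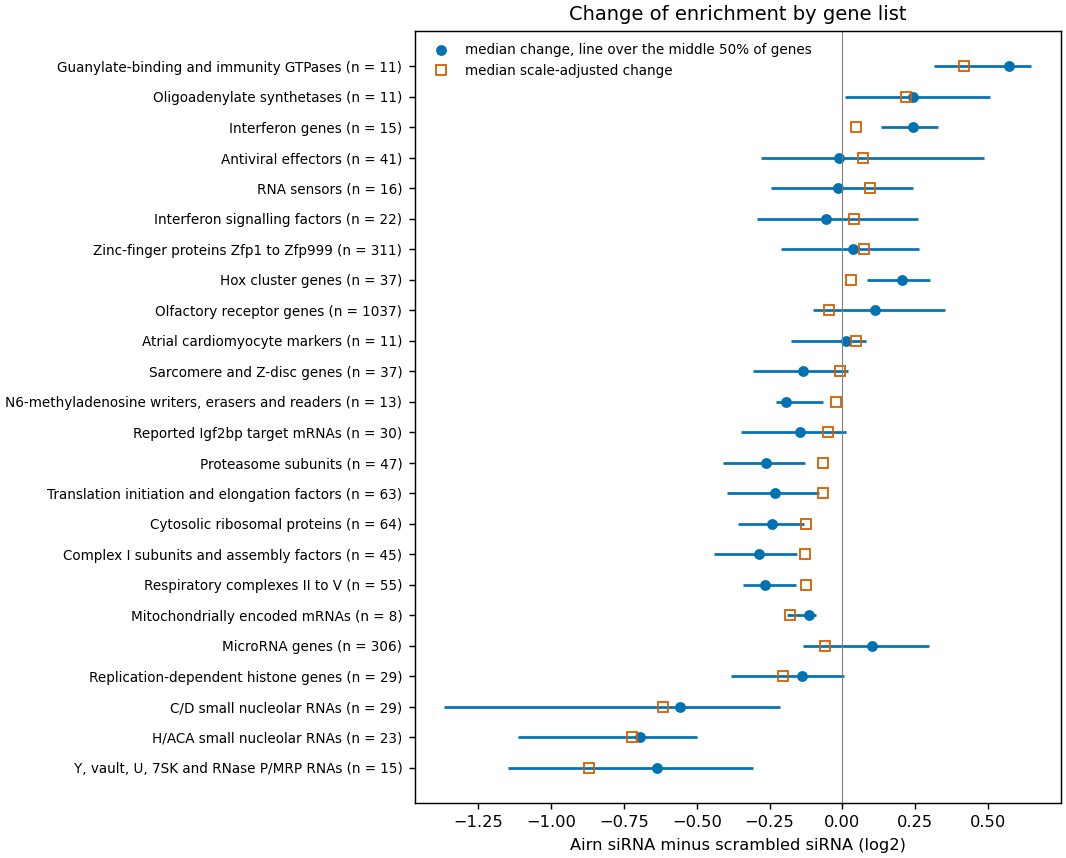
Median change (circles, with lines over the middle 50% of genes) and median scale-adjusted change (open squares) of 24 gene lists, Airn siRNA minus scrambled siRNA in log2 units. The squares of most lists lie near 0, those of the guanylate-binding GTPases and the oligoadenylate synthetases lie at 0.42 and 0.22, and those of the small nucleolar RNAs and other structured RNAs lie between -0.62 and -0.87.

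With each gene represented by its row of smallest SE, and clone names and small RNAs left aside, the 3 smallest p of the change were those of Mx2, Trim30a and Gbp3, all interferon-inducible. Cells answer interferons, secreted signals of viral infection, through receptors and kinases that activate STAT and IRF transcription factors, and these switch on genes whose products block viral RNA. In all, 129 genes of 7 interferon lists had a row, with a median change of 0.09 against -0.01 over all genes and a median scale-adjusted change of 0.09. Of them 12 (9.30%) had an unadjusted p under 0.05 on the higher side and 1 (0.775%) on the lower side, against 1.6% and 1.13% of all genes. With the scrambled siRNA 23 of these genes were below 0 and with the Airn siRNA above 0, and 2 genes were the reverse. Over all 20170 genes the numbers in the same order were 1013 and 637.

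The 3 members below, each with a promoter window in the RefSeq table of assembly GRCm38.p6 are shown because their windows hold the letters GAAANNGAAA on 1 strand or the other, and these letters are the core of the element that IRF and STAT complexes bind. Capitals mark the match, which reads TTTCNNTTTC on the strand shown. In Gbp3, 2 matches overlap.
Gbp3, chr3:142559794-142560093, plus strand: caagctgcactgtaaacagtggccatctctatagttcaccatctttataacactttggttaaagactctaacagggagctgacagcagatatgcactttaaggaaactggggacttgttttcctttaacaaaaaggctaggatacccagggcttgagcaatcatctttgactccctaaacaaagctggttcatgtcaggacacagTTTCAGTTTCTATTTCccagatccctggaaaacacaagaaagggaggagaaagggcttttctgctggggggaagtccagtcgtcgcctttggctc
Trim30a, chr7:104465144-104465443, minus strand: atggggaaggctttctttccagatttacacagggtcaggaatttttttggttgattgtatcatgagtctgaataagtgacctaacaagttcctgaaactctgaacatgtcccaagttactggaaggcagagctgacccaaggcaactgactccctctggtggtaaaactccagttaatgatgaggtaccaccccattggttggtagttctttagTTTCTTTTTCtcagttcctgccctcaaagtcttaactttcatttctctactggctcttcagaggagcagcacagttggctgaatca
Rsad2, chr12:26456403-26456702, minus strand: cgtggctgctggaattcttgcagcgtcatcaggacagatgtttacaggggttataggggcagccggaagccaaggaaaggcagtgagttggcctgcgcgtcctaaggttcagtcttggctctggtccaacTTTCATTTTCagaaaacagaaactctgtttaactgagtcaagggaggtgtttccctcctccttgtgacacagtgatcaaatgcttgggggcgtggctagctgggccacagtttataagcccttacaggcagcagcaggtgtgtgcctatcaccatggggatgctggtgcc
Each window runs from 250 bases before to 50 bases after an annotated start, and a gene with several starts counts as matched if any of its windows is. The letters occur on either strand in 1131 of 32851 windows of this length (3.44%) and in 568 of the 14954 genes of the table with a window (3.80%). They occur in 4 of 4 guanylate-binding and immunity GTPases, 14 of 32 antiviral effectors, 6 of 12 RNA sensors, 3 of 7 oligoadenylate synthetase genes, 9 of 15 interferon genes, 3 of 20 signalling factors and 3 of 11 class I antigen presentation genes with a window. The windows of Ifi44, Irf7 and Oasl1 do not hold these letters. Over the table, the median change was 0.03 in the 568 genes with a match and -0.02 in the 14386 genes without one, and the median scale-adjusted change was 0.01 with a match and -0.01 without one. A match is a description of the sequence and not of binding.

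Among the antiviral effectors, 41 genes had a row, and their median change of -0.01 was that of all genes, with a scale-adjusted one of 0.07 against -0.01 over all genes. Within the list 6 genes had an unadjusted p under 0.05, all higher with the Airn siRNA, against 1.6% of all genes. Mx2, a GTPase that blocks virus replication, stood in the authors' deposited table at 0.91 with the Airn siRNA and -1.02 with the scrambled siRNA (SE 0.22 each). Its change was 1.93 (95% interval 1.28 to 2.58, adjusted p = 0.179), and its p was the smallest among the named genes. Trim30a, a TRIM protein induced by interferon, stood in the authors' deposited table at 0.77 with the Airn siRNA and -0.63 with the scrambled siRNA, a change of 1.40 (SE 0.26). Both RNAs were therefore on the IgG side of 0 with the scrambled siRNA and on the Igf2bp2 side with the Airn siRNA. The authors' deposited adjusted p with the Airn siRNA was 0.0516 for Mx2 and 0.0504 for Trim30a, neither under 0.05. With the scrambled siRNA it was 0.00899 for Mx2 and 0.0197 for Trim30a.

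The 4 further effectors had changes from 0.90 to 1.34. Rtp4, a chaperone of receptors that is also induced by interferon, stood in the authors' deposited table at 1.12 with the Airn siRNA and -0.22 with the scrambled siRNA. Rsad2, which encodes viperin, stood in the authors' deposited table at 0.25 with the Airn siRNA and -0.85 with the scrambled siRNA, a change of 1.10 (SE 0.32). Ifi44 and the nuclear-body gene Sp100 had changes of 0.96 (SE 0.30) and 0.90 (SE 0.37). A second row of Sp100 had a change of 0.14 (SE 0.38), and the difference between the rows was not tested. The other 35 effectors had changes between -0.46 and 0.70.

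The guanylate-binding and immunity GTPases, which attack vacuoles of pathogens inside cells, were the list with the highest median change. All 11 genes with a row had a change above 0, with a median of 0.57 (range 0.09 to 1.30) and a median scale-adjusted change of 0.42, above 0 in 10 of 11. Gbp3 stood in the authors' deposited table at 0.73 with the Airn siRNA and -0.25 with the scrambled siRNA, a change of 0.98 (SE 0.22). Gbp8 was the only other member with an unadjusted p under 0.05, at 0.66 (SE 0.31). These 2 genes are 18.2% of the list, against 1.6% of all genes on the higher side. On the scale-adjusted change 1 member (9.09%) had an unadjusted p under 0.05, on the higher side, against 1.29% of all genes. Gvin1 had the largest change of the list, 1.30, with an SE of 0.87 that leaves its direction undecided. The Gbp genes resemble each other in sequence, and the table does not say whether their probe sets tell them apart.

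Active oligoadenylate synthetases sense double-stranded RNA and make a second messenger of the antiviral response. The list of this gene family, active or not, had 11 genes, a median change of 0.24 and a median scale-adjusted change of 0.22. Of the 11 changes, 8 were above 0. Oasl1 stood in the authors' deposited table at 0.40 with the Airn siRNA and -0.50 with the scrambled siRNA, a change of 0.89 (SE 0.36). Oas1a stood in the authors' deposited table at 0.88 with the Airn siRNA and -0.03 with the scrambled siRNA, a change of 0.91 (SE 0.44) whose interval reached -0.01. Oas3 had a change of 0.00.

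The lists upstream of the effectors hold sensors and signalling factors. The 16 RNA sensors had a median change of -0.02 and a scale-adjusted one of 0.09, and Ifi203, of a family of sensors of nucleic acids, had a change of 0.88 (SE 0.34). Dhx58, which encodes the sensor LGP2, had a change of 0.83 (SE 0.46), and Ifih1, which encodes MDA5, one of -0.42 (SE 0.37). The 22 signalling factors had a median change of -0.05 and a scale-adjusted one of 0.04. On each side 1 gene (4.55%) had an unadjusted p under 0.05 for the change, against 1.6% of all genes higher and 1.13% lower. Irf7, the factor that amplifies interferon production, had a change of 0.63 (SE 0.26). Ifngr1, the ligand-binding chain of the receptor for interferon gamma, stood in the authors' deposited table at 0.12 with the Airn siRNA and 0.95 with the scrambled siRNA, a change of -0.82 (SE 0.27). Irf1 had 2 rows, with changes of 0.61 (SE 0.29) and -0.11 (SE 0.40).

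The class I antigen presentation genes had a median change of -0.16 and a scale-adjusted one of 0.01, and none of the 14 had an unadjusted p under 0.05. Tapbp, the loading chaperone tapasin, was at -0.75 (SE 0.42) and its relative Tapbpl at 0.71 (SE 0.35). The interferon genes themselves had a median change of 0.24 with 15 of 15 above 0, but they lay at a median of -0.37 with the Airn siRNA and -0.56 with the scrambled siRNA. After scale adjustment their median was 0.05, with 10 of 15 above 0. Ifna11, at 0.77 (SE 0.30), was the only one with an unadjusted p under 0.05 (6.67%, against 1.6% of all genes on the higher side). On the scale-adjusted change none had one. The Ifna genes are close copies of each other.

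**Figure D4:**
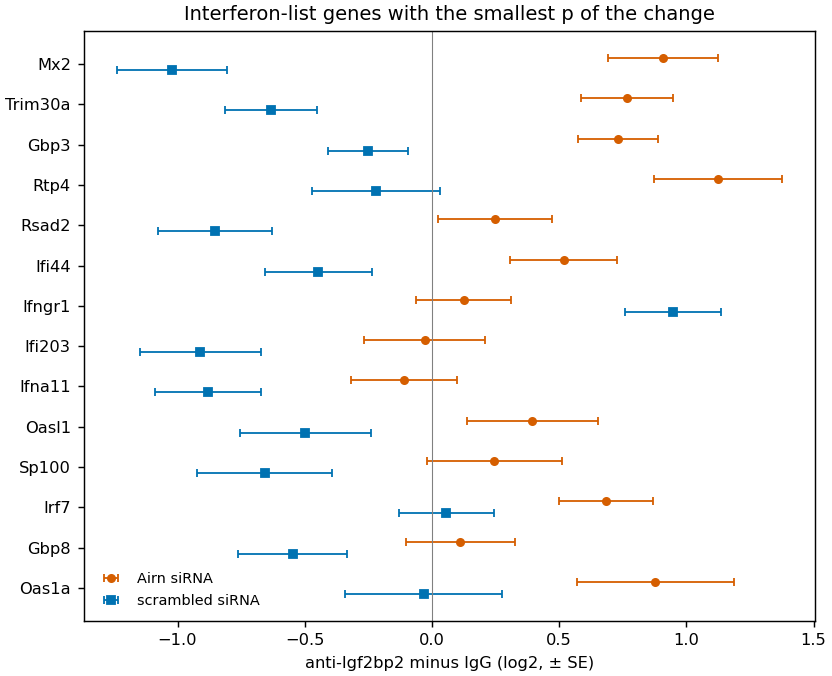
Enrichment (log2, anti-Igf2bp2 minus IgG, with horizontal lines of 1 SE) of the 14 interferon-list genes with the smallest p of the change, with the Airn siRNA (circles) above the scrambled siRNA (squares). For Mx2, Trim30a, Gbp3, Rsad2 and Ifi44, among others, the circles lie right of 0 and the squares left of it, and Ifngr1 is the only gene whose circle lies left of its square.

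Small nucleolar RNAs had the lowest medians, with the other structured RNAs. These RNAs guide the chemical modification of ribosomal and spliceosomal RNA, H/ACA members directing pseudouridine and C/D members methylation of the ribose, and most are cut from the introns of host genes. The 52 small nucleolar RNAs had a median enrichment of -0.66 with the Airn siRNA and 0.08 with the scrambled siRNA. Their median change was -0.65, and scale adjustment left it at -0.66. Enrichment was above 0 with the scrambled siRNA and below 0 with the Airn siRNA in 22 of 52, and the reverse in 1. Over all 20170 genes these numbers were 637 and 1013. The median SE of their changes was 0.55, larger than the 0.33 over all genes, so single members were measured less precisely. Members of this and every other list were measured on the same arrays. Their errors may be shared, which was not tested, so members that moved together are not independent replicates of the siRNA comparison.

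All 23 H/ACA RNAs had a change below 0, from -2.49 to -0.21, with a median of -0.69. Of these, 6 had an unadjusted p under 0.05, all lower, against 1.13% of all genes. Snora69 stood in the authors' deposited table at -2.14 with the Airn siRNA and 0.36 with the scrambled siRNA, a change of -2.49 (95% interval -4.08 to -0.91). Snora3 was at -2.25 (SE 0.97), and its second row at -2.30 (SE 0.98). Snora16a was at -1.96 (SE 0.87), Snora73a at -1.36 (SE 0.58) and its close copy Snora73b at -1.20 (SE 0.54). Snora23 had a smaller change, -0.60, with a smaller SE of 0.26.

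The 29 C/D RNAs had a median change of -0.56, and 4 of them had an unadjusted p under 0.05, all lower, against 1.13% of all genes. Snord57 stood in the authors' deposited table at -1.99 with the Airn siRNA and -0.36 with the scrambled siRNA, a change of -1.63 (SE 0.47). Snord15b was at -1.78 (SE 0.61), Snord35b at -1.90 (SE 0.72) and Snord14e at -1.62 (SE 0.73). Snord37 stood higher with the Airn siRNA, at 0.77 (SE 0.40). Snord118, which encodes U8, had identical values in 2 rows, a change of -1.70 (SE 0.90).

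The brain-type C/D clusters had changes above 0, which scale adjustment turned below 0 in most rows of Snord115. Snord115 and Snord116 are tandem copies of the imprinted Prader-Willi region and are known mainly from neurons. The 16 rows of Snord115 had changes from 0.07 to 0.28 and the 5 rows of Snord116 changes from 0.36 to 0.55. The scale-adjusted change was below 0 in 13 of the 16 rows of Snord115, with a median of -0.04, and above 0 in all 5 rows of Snord116, with a median of 0.43. Many of these rows carried identical values, so they are not separate measurements. Without them the 27 remaining C/D RNAs had a median change of -0.79.

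Other short structured RNAs were lower as a list. The 15 Y, vault, U, 7SK, small Cajal body and RNase P/MRP RNAs had a median enrichment of -1.20 with the Airn siRNA and -0.46 with the scrambled siRNA. Their median change was -0.64 and the median scale-adjusted change -0.87, with 14 of 15 below 0 by either measure. Rmrp, the RNA of the enzyme that processes ribosomal RNA precursors, stood in the authors' deposited table at -1.43 with the Airn siRNA and -0.07 with the scrambled siRNA, a change of -1.36 (SE 0.56). Rny3, a Y RNA, had a change of -0.91 (SE 0.47), and the U3 gene Rnu3a, itself a C/D RNA, one of -1.29 (SE 0.73). Rnu2, the U2 spliceosomal RNA, had 7 rows with changes from -0.95 to -0.81, and 4 of these rows were identical. Only Terc, the RNA of telomerase, had a change above 0, at 0.26 (SE 0.29). Rn7sk, an inhibitor of transcription elongation, had changes of -0.12 and -0.39 in its 2 rows.

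**Figure D5:**
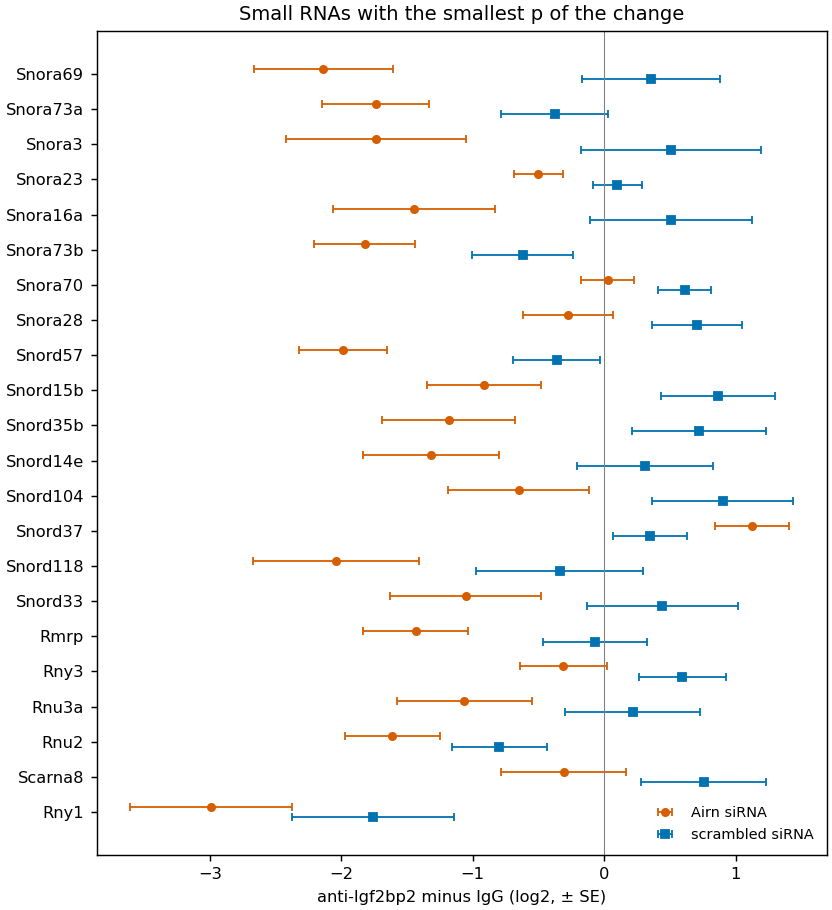
Enrichment (log2, anti-Igf2bp2 minus IgG, with horizontal lines of 1 SE) of 22 small RNAs, those of each list with the smallest p of the change, with the Airn siRNA (circles) above the scrambled siRNA (squares). All circles but that of Snord37 lie left of their squares, and for Snora69, Snora3, Snora16a and Snord35b the circle and the square lie on either side of 0.

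Host genes of small nucleolar RNAs were mixed. Snhg1, a spliced non-coding host, had 5 rows, and its most precise one stood in the authors' deposited table at -0.14 with the Airn siRNA and 1.35 with the scrambled siRNA. The change of that row was -1.50 (SE 0.42), and the other rows had changes of -0.93, -0.61, -0.35 and 0.37. Gas5, a host of C/D RNAs, had changes of -0.85, -0.83, -0.44 and -0.15 in 4 rows, none with an unadjusted p under 0.05. With the scrambled siRNA the rows of Snhg1 lay from -1.27 to 1.35 and those of Gas5 from -0.86 to 1.57. The sources used here do not say whether a row measures the spliced host or an RNA cut from its introns. The nuclear long RNA Malat1 was at -0.20 (SE 0.33) and the imprinted Meg3 at 0.65 (SE 0.47).

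Histone genes of the replication-dependent kind make mRNAs that end in a stem-loop and carry no poly(A) tail. The 29 genes had a median change of -0.14 and a median scale-adjusted change of -0.20. Single members ran against the median: Hist1h1d was at 0.77 (SE 0.30), Hist1h2ac at 0.61 (SE 0.26) and 1 row of Hist1h2bc at 0.74 (SE 0.35), the 3 genes of the list with an unadjusted p under 0.05, against 1.6% of all genes on the higher side. The second row of Hist1h2bc had a change of -0.18 (SE 0.36). On the scale-adjusted change 2 genes of the list (6.90%) had an unadjusted p under 0.05 on the higher side and 1 (3.45%) on the lower side. The shares of all genes were 1.29% and 0.506%. For the first row of Hist1h2bc the unadjusted p of the scale-adjusted change was 0.103.

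MicroRNA genes had a median change above 0 and a scale-adjusted one below it. The arrays carry probes for the precursors of microRNAs, which mature into short guides that repress mRNAs through their seed. The 306 microRNA genes had a median enrichment of -0.47 with the Airn siRNA and -0.60 with the scrambled siRNA, a median change of 0.10 and a median scale-adjusted change of -0.06. Of them 2 (0.654%) had an unadjusted p under 0.05 on the higher side and 6 (1.96%) on the lower side, against 1.6% and 1.13% of all genes. On the scale-adjusted change 1 (0.327%) did on the higher side and 6 (1.96%) on the lower side, against 1.29% and 0.506% of all genes. RefSeq sequences of assembly GRCm38.p6 matched 275 of the 306. The mature arms of the 4 genes with the smallest p are given because these are the microRNAs named next, with the seed, bases 2 to 8, in capitals.
mmu-miR-299a-3p: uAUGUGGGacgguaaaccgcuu
mmu-miR-299a-5p: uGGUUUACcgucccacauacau
mmu-miR-99a-3p: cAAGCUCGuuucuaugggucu
mmu-miR-99a-5p: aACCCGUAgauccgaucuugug
mmu-miR-674-3p: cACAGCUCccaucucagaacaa
mmu-miR-674-5p: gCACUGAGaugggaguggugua
mmu-miR-32-3p: cAAUUUAGugugugugauauu
mmu-miR-32-5p: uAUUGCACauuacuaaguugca
No 2 of these 8 arms share a seed. Mir299, whose current name is Mir299a and which lies in an imprinted cluster of microRNAs, stood in the authors' deposited table at -0.29 with the Airn siRNA and -1.82 with the scrambled siRNA, a change of 1.53 (SE 0.43). Mir99a had a change of -0.75 (SE 0.26), Mir674 one of -0.90 (SE 0.33) and Mir32 one of -0.82 (SE 0.31). Mir32 stood in the authors' deposited table at -0.75 with the Airn siRNA and 0.07 with the scrambled siRNA.

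Lists of energy metabolism had median changes below 0, and scale adjustment brought them closer to 0, except for the mRNAs of the mitochondrial genome. The nuclear mRNAs were among those enriched on Igf2bp2, and the respiratory chain they encode passes electrons from NADH and succinate to oxygen and makes ATP. The 45 complex I genes had median enrichments of 0.41 with the Airn siRNA and 0.68 with the scrambled siRNA. Their median change was -0.29, with 8 of 45 above 0, and scale adjustment left -0.13. The 55 genes of complexes II to V had a median change of -0.26 and a scale-adjusted one of -0.12, and each of these lists had 1 gene with an unadjusted p under 0.05, on the lower side, against 1.13% of all genes.

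Uqcr11, a small subunit of complex III, stood in the authors' deposited table at -0.11 with the Airn siRNA and 0.58 with the scrambled siRNA, a change of -0.69 (SE 0.22). Its second row was at -0.30 (SE 0.43). Ndufc2, a complex I subunit, had a change of -0.62 (SE 0.28) and Cox7a1, the heart and muscle form of a complex IV subunit, one of -0.86 (SE 0.49). Glycolysis, pyruvate dehydrogenase and citric acid cycle genes had a median change of -0.25 with 1 of 39 above 0, and -0.08 after scale adjustment. Dld, the shared subunit of the mitochondrial dehydrogenases, was at -1.11 (SE 0.44). Fatty-acid oxidation and peroxisome genes had a median of -0.27 that became -0.07. Among them Pex10, a peroxisomal ubiquitin ligase, was at 0.52 (SE 0.22) and Ech1 of fatty-acid oxidation at -0.65 (SE 0.30). On the scale-adjusted change, no gene of the complex I, glycolysis or fatty-acid lists had an unadjusted p under 0.05 on the lower side. On the higher side 2 genes of the fatty-acid list did (4.88%, against 1.29% of all genes), and none of the complex I or glycolysis lists. In complexes II to V, 2 genes (3.64%) did on the higher side and 1 (1.82%) on the lower side, against 1.29% and 0.506% of all genes.

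The 8 mRNAs of the mitochondrial genome had median enrichments of -0.02 with the Airn siRNA and 0.12 with the scrambled siRNA. All 8 had a change below 0, with a median of -0.11 and a median scale-adjusted change of -0.18, and none had an unadjusted p under 0.05. ND3 had the lowest at -0.43 (SE 0.28). ND6, the only protein-coding gene of the light strand, stood in the authors' deposited table at -2.60 with the Airn siRNA and -2.59 with the scrambled siRNA, a change of 0.00. It was thus far on the IgG side with either siRNA.

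Translation genes also had median changes below 0. The 64 cytosolic ribosomal protein genes had median enrichments of 0.32 with the Airn siRNA and 0.55 with the scrambled siRNA. Their median change was -0.24, with 4 of 64 above 0 and none with an unadjusted p under 0.05, and scale adjustment left -0.12. Rps29 was at -0.72 (SE 0.41), and Rpl3l, the muscle-specific paralogue of Rpl3, at 0.69 (SE 0.37). The 71 mitochondrial ribosomal protein genes had a median change of -0.22 and a scale-adjusted one of -0.06, with Mrpl13 at -0.55 (SE 0.25) and Mrpl27 at 0.49 (SE 0.22). Initiation and elongation factors were at -0.23 and -0.07, and aminoacyl-tRNA synthetases at -0.09 and 0.08. Eif4e1b, a relative of the cap-binding protein known from oocytes, had 2 rows, at 0.92 (SE 0.23) and -0.28 (SE 0.33).

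Genes for RNA processing and for the m6A pathway had scale-adjusted medians near 0. Splicing factors had a median change of -0.17 and -0.02 after scale adjustment (73 genes), with Rbm17 at -0.79 (SE 0.34) and Luc7l3 at -0.81 (SE 0.37). Exosome, processome, export and deadenylation genes were at -0.22 and -0.03 (52 genes), and Exosc2, of the RNA-degrading exosome, was at -1.12 (SE 0.44). No gene of either list had an unadjusted p under 0.05 for the scale-adjusted change. The 13 writers, erasers and readers of N6-methyladenosine had a median change of -0.19 and a scale-adjusted one of -0.02. By their most precise rows the members lay between -0.34 for Rbm15, a partner of the methyltransferase, and 0.18, with none at an unadjusted p under 0.05. The methyltransferase partner Wtap was at -0.29 (SE 0.36) and in its second row at -0.56 (SE 0.46), the demethylase Fto at -0.07 and the reader Ythdf2 at -0.26 (SE 0.29).

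The Igf2bp family and its classical RNAs held 12 genes, and none had an unadjusted p under 0.05. The mRNA of Igf2bp2 itself stood in the authors' deposited table at 1.00 with the Airn siRNA and 0.74 with the scrambled siRNA, a change of 0.26 (95% interval -0.35 to 0.87). Igf2bp1 was at -0.13 (SE 0.25) and in its second row at 0.12 (SE 0.38), and Igf2bp3 was at 0.44 (SE 0.41). Igf2, the growth factor for which the family is named, was in the authors' deposited table at -0.49 with the Airn siRNA and -0.47 with the scrambled siRNA. H19, the long RNA of the same imprinted locus, was in the authors' deposited table at 0.90 with the Airn siRNA and 0.76 with the scrambled siRNA. The 30 mRNAs reported as Igf2bp targets in other cells had a median change of -0.14 and a scale-adjusted one of -0.05, with the cyclin gene Ccnd2 at -0.57 (SE 0.31). Actb, a classical target of Igf2bp1, was at -0.22 (SE 0.27).

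Airn itself had 2 rows, with changes of -0.09 (95% interval -0.72 to 0.54) and -0.06 (95% interval -0.94 to 0.82). The more precise row stood in the authors' deposited table at 0.38 with the Airn siRNA and 0.48 with the scrambled siRNA. A change of enrichment is corrected for the level in the IgG precipitates, so it does not report how much Airn remained. The 13 genes of the list around Igf2r had a median change of -0.10 and a scale-adjusted one of -0.03. Igf2r, which Airn overlaps, was at -0.01 (SE 0.30), and the organic cation transporters Slc22a2 and Slc22a3 were at -0.39 (SE 0.34) and 0.05. The sources used here do not say whether the probe sets of Igf2r and Airn tell the strands apart. The 36 imprinted genes elsewhere had a median change of 0.05, with Cdkn1c, a cyclin-kinase inhibitor, at 0.61 (SE 0.34).

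Most lists of protein turnover and the secretory pathway had median changes below 0. Proteasome subunits had a median change of -0.26 and a scale-adjusted one of -0.07, and ubiquitin-conjugating enzymes -0.24 and -0.05. Translocon, signal recognition and coat genes were at -0.24 and -0.10, and 4 of 68 had an unadjusted p under 0.05, all lower, against 1.13% of all genes. These were Sec11c and Spcs3 of the signal peptidase at -1.04 (SE 0.40) and -0.76 (SE 0.34), Copz2 of the COPI coat at -0.91 (SE 0.37) and Srp9 of the signal recognition particle at -0.85 (SE 0.37). None of the 4 had an unadjusted p under 0.05 for the scale-adjusted change. Cholesterol synthesis genes were at -0.30 and -0.14, with Hmgcs1 at -0.83 (SE 0.40). Rab and SNARE genes were at -0.02 and 0.08, at median enrichments of 0.45 with the Airn siRNA and 0.50 with the scrambled siRNA.

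Genes of the cardiomyocyte were mixed. Nppa, the atrial natriuretic peptide and a defining marker of atrial cells, stood in the authors' deposited table at 1.03 with the Airn siRNA and 0.19 with the scrambled siRNA. Its change was 0.84 (95% interval 0.16 to 1.52) and its scale-adjusted change 0.89. The other 10 atrial markers had changes between -0.32 and 0.11, with a list median of 0.01. Sarcomere and Z-disc genes had a median change of -0.14 and a scale-adjusted one of -0.01. Within the list Tnnc1, cardiac troponin C, was at -1.11 (SE 0.51), and Myom2 and Xirp2 were at 0.59 (SE 0.25) and 0.64 (SE 0.30). On the scale-adjusted change 1 gene of the list had an unadjusted p under 0.05, on the higher side, against 1.29% of all genes. Calcium-handling genes of the sarcoplasmic reticulum were at -0.24 and -0.09.

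Ion channel subunits, whose mRNAs lay on the IgG side as a list, had a median change of 0.09 and a scale-adjusted one of -0.04. Of 125 channel genes, 5 had an unadjusted p under 0.05 and all were higher, against 1.6% of all genes. Kcnj3, the acetylcholine-gated potassium channel of the atrium, stood in the authors' deposited table at 0.05 with the Airn siRNA and -0.81 with the scrambled siRNA, a change of 0.87 (SE 0.25). Hcn2, a pacemaker channel, was at 0.76 (SE 0.27), Kcne1, an accessory subunit of the slow delayed rectifier, at 0.72 (SE 0.27), Kcnn1 at 0.78 (SE 0.34) and Kcnn2 at 0.57 (SE 0.25). After scale adjustment 4 of the 125 (3.2%) had an unadjusted p under 0.05, again all higher, against 1.29% of all genes.

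Zinc-finger genes named Zfp were the largest list of transcription factors, with 311 members. Their median change was 0.04 and the scale-adjusted one 0.07, at median enrichments of 0.28 with the Airn siRNA and 0.30 with the scrambled siRNA. On the plain change 2 (0.643%) had an unadjusted p under 0.05 on the higher side and 4 (1.29%) on the lower side, against 1.6% and 1.13% of all genes. On the scale-adjusted change 9 (2.89%) did on the higher side and 0 on the lower side, against 1.29% and 0.506% of all genes. Zfp622, a factor in the maturation of the large ribosomal subunit, had a change of 0.78 (SE 0.26), and Zfp846 one of -1.03 (SE 0.38).

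Most lists of genes known from tissues other than the heart lay on the IgG side with either siRNA, with median changes above 0 and scale-adjusted ones near 0. Olfactory receptor genes, the largest family with 1037 members, had median enrichments of -0.52 with the Airn siRNA and -0.64 with the scrambled siRNA. Their median change was 0.11 and their scale-adjusted one -0.05, and 18 (1.74%) had an unadjusted p under 0.05 on the higher side and 2 (0.193%) on the lower side, against 1.6% and 1.13% of all genes. On the scale-adjusted change these counts were 6 and 3, against 1.29% and 0.506% of all genes. Vomeronasal, taste and trace-amine receptors had a median change of 0.14 and a scale-adjusted one of -0.05. Hox genes had 0.20 and 0.03, and serpins 0.16 and -0.02. Leukocyte markers were at 0.19 and 0.01, endothelial markers at 0.05 and 0.01, fibroblast markers at -0.09 and -0.10, and neuronal markers at 0.02 and 0.02. The table gives no level, so it does not say which of these marker RNAs were present in the cells.

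Fgf, Wnt and Bmp ligands included 2 of the genes with the smallest p on the higher side. Fgf16, a growth factor of the heart, stood in the authors' deposited table at 0.90 with the Airn siRNA and -0.02 with the scrambled siRNA, a change of 0.92 (SE 0.23). Fgf6, known from muscle, was at 1.02 (SE 0.25), Fgf21 at 0.76 (SE 0.28), Fgf1 at 0.56 (SE 0.23) and Bmp4 at -0.55 (SE 0.23). The list as a whole had a median change of 0.10 and a scale-adjusted one of 0.00.

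Outside the lists' themes, the genes with the smallest p on the higher side were of varied kinds. Ttll11, an enzyme that adds glutamate chains to tubulin, had a change of 1.19 (SE 0.29). Samd12 was at 0.93 (SE 0.24), Myct1 at 0.74 (SE 0.19), Rsph10b2 at 0.86 (SE 0.23) and Tnfsf9, a ligand that costimulates T cells, at 0.98 (SE 0.27). In the authors' deposited table these 5 lay between -0.46 and 0.34 with the Airn siRNA and between -1.21 and -0.60 with the scrambled siRNA. Cby1, an antagonist of beta-catenin, stood in the authors' deposited table at 0.82 with the Airn siRNA and 0.02 with the scrambled siRNA. Cby1, Scrn1 at 0.69 (SE 0.26) and Ccdc137 at 0.96 (SE 0.30) were among the 12 genes with the smallest p of the scale-adjusted change.

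On the lower side, by the same ranking, the smallest p was that of Cyp39a1, an enzyme that hydroxylates oxysterols on the way to bile acids. It stood in the authors' deposited table at 0.23 with the Airn siRNA and 1.26 with the scrambled siRNA, a change of -1.03 (SE 0.27). Cdc42ep2, an effector of the GTPase Cdc42, was at -0.80 (SE 0.23), and Rg9mtd1, a subunit of mitochondrial RNase P, at -0.87 (SE 0.25). Tmem222 was at -1.01 (SE 0.30), the lysosomal enzyme gene Ppt1 at -0.93 (SE 0.29), the cohesin subunit Stag1 at -0.97 (SE 0.30), Rufy2 at -0.69 (SE 0.22) and Baz2b at -1.02 (SE 0.33). All 8 lay in the authors' deposited table between 0.02 and 0.48 with the Airn siRNA and between 0.94 and 1.30 with the scrambled siRNA. For Rufy2 the unadjusted p of the scale-adjusted change was 0.0643. Klk1b11, a kallikrein, had by this ranking the smallest p on the lower side of the scale-adjusted change, and stood in the authors' deposited table at -0.92 with the Airn siRNA and 0.02 with the scrambled siRNA. Gpr50, at a change of -0.78 (SE 0.29), and Wfikkn1, at -0.85 (SE 0.27), also lay below 0 with the Airn siRNA.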

How the data were processed

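RNA immunoprecipitated with anti-Igf2bp2 or IgG from HL-1 cells was hybridised to Affymetrix arrays, with 4 biological replicates in each of 4 groups, per the labels. For each siRNA the authors' deposited table gives, per the file headers, a log2 value for anti-Igf2bp2 minus IgG with a p-value and an adjusted p-value. The log2 scale follows from the form of the values and is not stated. For software, normalization, filters and build the sources used here give nothing. The planned linear model on arrays could not be made from comparisons, so the standard error of a row was computed back from the deposited log2 value and p-value (16.13 degrees of freedom, which gave both comparisons the same standard error within a median of 0.0712%). The change is the Airn-siRNA difference minus the scrambled-siRNA difference, with errors taken as independent. The scale-adjusted change multiplies the second by the orthogonal slope over rows with a single symbol. Both were tested with a t distribution and adjusted by Benjamini-Hochberg over 35556 rows (Python 3.11.15, SciPy 1.17.1), after the script was tested on simulated arrays with limma 3.58.1 in R 4.3.3. Rows with several symbols (2824), none (10302) or a symbol turned into a date (24) were adjusted over but not named.

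Named genes are the 12 with the smallest p of the change and of the scale-adjusted change in each direction, up to 6 members of each list by p, members of lists of at most 15, and a few fixed genes. Predicted genes were left out. The genes and the 68 lists were chosen with earlier results of these data known. Lists are described by counts and medians, with no test. The number of arrays limits the precision. Symbols are those of the table, and 19456 of 20170 genes matched RefSeq by symbol or by 1 synonym. A gene of the interferon lists is not reported here and was left out of their counts and medians.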

Additional observations from a re-analysis of the deposited data

How the results depend on the processing

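With an assumed correlation of 0.3 between the errors of the comparisons, 2 rows had an adjusted p under 0.05 for the change, Mx2 (0.0202) and a row with no symbol, against 0 otherwise. Rows with an unadjusted p under 0.05 then numbered 2571, and 630 with a correlation of -0.3, against 1222 for independent errors. There were 611 when only rows with a single symbol were tested and 550 with 1 row per gene, where fewer rows are tested. Taking the standard error from 1 comparison alone, or centring each comparison on its median, gave 0 rows with an adjusted p under 0.05. Centring shifted every change by 0.0435 log2 units, and the centring of the bins by average enrichment was chosen after seeing the data. Other ways to fit the line gave slopes from 0.742 to 0.773, and 0 rows passed on the scale-adjusted change under any of them. Of 68 list medians, 1 had the other sign when a gene's rows were averaged, 5 after centring and 20 after scale adjustment. The alternatives that leave out replicates were not run. No paired analysis was possible because the table holds comparisons and no values of single arrays. For the same reason batches, signal over background and samples that stand apart could not be examined.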
